A study of Mus musculus with 12 samples.

Results

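The fatty acid uptake and binding genes described here are 10 of the 55536 genes in the deposited tables. The set was chosen by gene symbol, with earlier results of these data known. They are Cd36, Slc27a2 and Slc27a4, which act in uptake at membranes; Fabp1, Fabp2, Fabp4 and Fabp5, which bind fatty acids inside the cell; and Lpl, Lipc and Vldlr, which act on lipoproteins outside it. Hepatic RNA had been sequenced from 3 groups of 4 samples, and all 10 genes were measured in all 12 samples. The shLacZ group received adenovirus with a short hairpin RNA (shRNA) against lacZ, a bacterial gene, and served as control. The shG0s2 and shRgs16 groups received adenovirus with hairpins against G0s2, whose protein blocks adipose triglyceride lipase, and Rgs16, whose protein shortens G protein signalling. All 3 groups were wild-type C57BL/6J mice aged 8 weeks, kept under alternating light and dark with free access to food, and all received a dose of 0.1 OD of virus into the tail vein. Livers of every group were taken 12 days after the virus, at zeitgeber time 12, after 6 h without food in the daytime, so that the controls carried virus and a short fast as well. The virus went into the circulation of whole animals and whole liver was sequenced, so each value is a mixture of all liver cells, whether or not the virus reached them. In such bulk samples, fewer cells of a type and less RNA per cell cannot be told apart. The labels state neither the sex of the mice nor that each sample is its own animal. The p-values therefore rest on sample-to-sample spread, which may be technical.

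The liver takes fatty acids from plasma and from lipoprotein remnants, and it stores, oxidises or exports them as triglyceride. At the membrane, Cd36 binds long-chain fatty acids and the Slc27 proteins, also called fatty acid transport proteins, couple their entry to activation with coenzyme A. In the cytosol the fatty acid binding proteins, small lipid carriers of one fold, ferry them between membranes, and Fabp1 is the liver form. Lipases on the vessel wall free fatty acids from circulating triglyceride: hepatic lipase (Lipc) is made by the healthy adult liver, while lipoprotein lipase (Lpl) is known mainly from fat, muscle and heart.

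Library totals ran from 25636504 to 26472233 counts for shLacZ, from 18458266 to 26031061 for shG0s2 and from 24855361 to 27170443 for shRgs16. G0s2 stood at 73.7 ± 9.80, 37.2 ± 10.1 and 75 ± 14.1 CPM (a count divided by the TMM-scaled library size, here and below over the 12 samples) in shLacZ, shG0s2 and shRgs16 (mean ± SD, n = 4 each). Rgs16 stood at 149 ± 46.3, 59.1 ± 11.4 and 26.2 ± 10.9 CPM in the same order, so that the shG0s2 group was also low in Rgs16. Each target fell under its own hairpin, G0s2 by 0.98 on the log2 scale (adjusted p = 0.0030, edgeR's quasi-likelihood test) and Rgs16 by 2.51 (adjusted p = 0.0017). With library size alone in place of TMM, G0s2 stood 0.48 lower on the log2 scale, with an adjusted p of 0.055. The major urinary protein genes took 9.56% to 11.03% of counts in the controls, 0.822% to 1.57% under shG0s2 and 1.16% to 3.31% under shRgs16. With library size alone, the median of all genes moved up by 0.50 on the log2 scale for shG0s2 and by 0.31 for shRgs16, where TMM gave 0.01 for both. The fold changes below are relative to the TMM scale, and those whose direction changed with library size alone are named. In TPM (explained below), the means of further genes that fell on the TMM scale lay above the controls. Among them were Ppara, Acsm3, Acsm5, Scp2 and Rxra in shG0s2, and Slc27a4, Slc27a5, Rbp4 and Mlxipl in shRgs16. Hepatocyte markers (12 genes) summed to 55500 to 67600 CPM in the controls, 34000 to 56400 under shG0s2 and 61600 to 67800 under shRgs16. Alb, the most abundant of the 12 per transcript length, weighs heavily in this sum. It differed by 0.08 on the log2 scale in shG0s2 (adjusted p = 0.73) and rose by 0.33 in shRgs16 (adjusted p = 0.023). With library size alone it was 0.56 and 0.63 higher, and both passed. The numbers of these markers that rose or fell are given below.

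In TPM, the deposited measure of transcript abundance per length that allows levels to be compared between genes, the 10 genes spanned a wide range in every group. In shLacZ, Fabp1 was the highest at 7866 ± 546 TPM (mean ± SD, n = 4), followed by Slc27a2 at 1090 ± 46.0 and Lipc at 126 ± 4.80. Fabp2 followed at 73.5 ± 10.8 and Cd36 at 53.8 ± 7.80 TPM. These 5 did not overlap with their neighbours in the order. Fabp5 (30.8 ± 11.7), Fabp4 (20.7 ± 0.647) and Lpl (18.8 ± 2.37) came next, and each overlapped with the next among these 3. Slc27a4 stood at 13.6 ± 0.609 TPM and Vldlr was the lowest at 0.888 ± 0.533. The order changed at its middle in shG0s2. Cd36 stood at 240 ± 21.4 TPM, in the third place that Lipc held in shLacZ. Lpl reached 107 ± 6.91 and Fabp4 105 ± 21.6 TPM, their means within the range of the Fabp2 samples (111 ± 8.48), while Lipc lay at 82.8 ± 11.1. In shRgs16 the first 5 places were as in shLacZ, with Fabp1 at 5513 ± 789 TPM, and among Cd36 (70.3 ± 13.4), Lpl (53.6 ± 10.8), Fabp4 (40.9 ± 2.76) and Fabp5 (34.1 ± 6.37) each overlapped with the next of these 4. Fabp1 and Slc27a2 held the first places and Slc27a4 and Vldlr the last in all 3 groups. Together the 10 genes took 0.416% to 0.452% of all counts in the controls, 0.340% to 0.371% under shG0s2 and 0.302% to 0.352% under shRgs16.

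**Figure D1:**
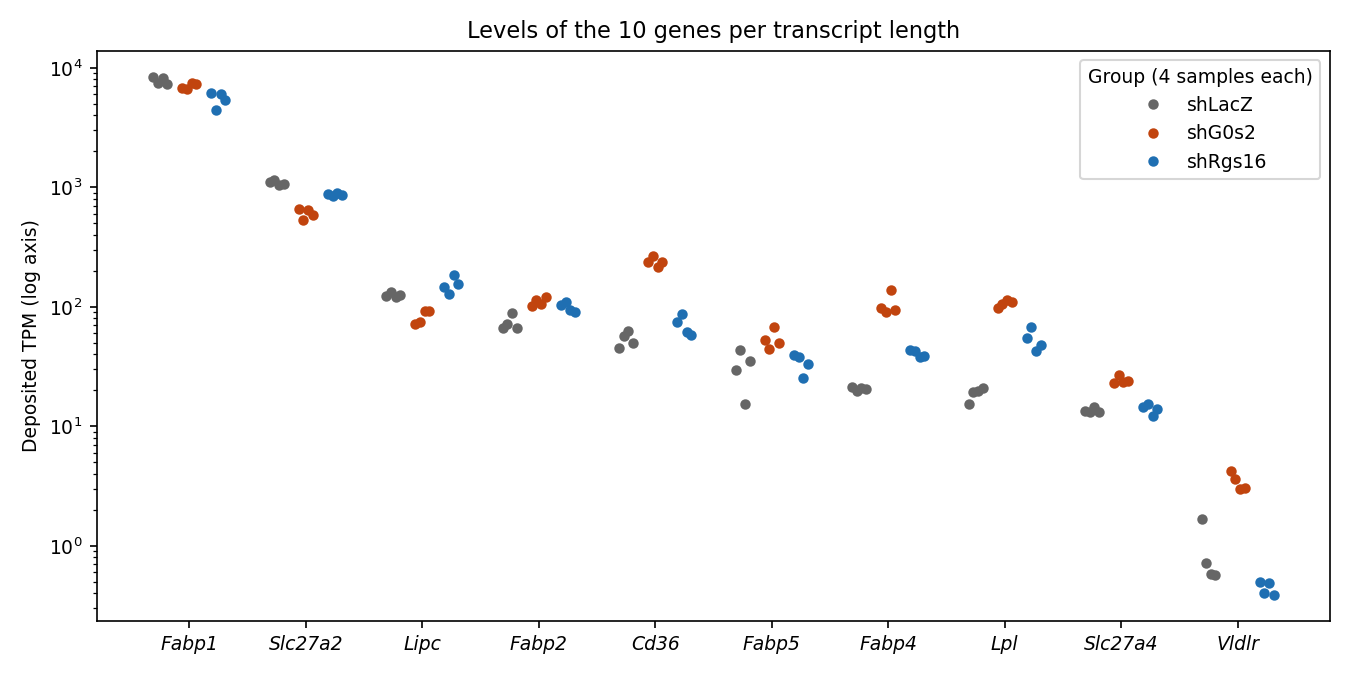
Deposited TPM of the 10 genes on a log axis, one point per sample, in shLacZ, shG0s2 and shRgs16 (n = 4 each). Fabp1 and Slc27a2 lie at the top and Vldlr at the bottom in every group, while Cd36, Fabp4 and Lpl lie higher in shG0s2 (means of 240, 105 and 107 TPM) than in shLacZ (53.8, 20.7 and 18.8).

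The stretches before the start sites of 4 genes are printed because these genes show the different courses described below: Fabp1 and Slc27a2 fell in both knockdowns, Cd36 rose in shG0s2, and Vldlr moved in opposite directions. Each is the 250 bases before the transcription start that RefSeq lists on GRCm38.p6, written 5′ to 3′ on the gene's strand. Capitals mark matches, on either strand, to AGGTCA, the core letters of many nuclear receptors, and to TATAAA, the TATA box. The Fabp1 window lies at chr6:71199629-71199878 (plus strand), Slc27a2 at chr2:126552774-126553023 (plus strand), Cd36 at chr5:17835897-17836146 (minus strand) and Vldlr at chr19:27216234-27216483 (plus strand; the first of 2 entries).
Fabp1: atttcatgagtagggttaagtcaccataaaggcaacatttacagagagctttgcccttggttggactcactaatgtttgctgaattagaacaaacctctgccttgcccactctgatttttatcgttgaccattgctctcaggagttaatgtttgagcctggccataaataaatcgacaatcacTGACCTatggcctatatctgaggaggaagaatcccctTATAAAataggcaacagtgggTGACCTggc
Slc27a2: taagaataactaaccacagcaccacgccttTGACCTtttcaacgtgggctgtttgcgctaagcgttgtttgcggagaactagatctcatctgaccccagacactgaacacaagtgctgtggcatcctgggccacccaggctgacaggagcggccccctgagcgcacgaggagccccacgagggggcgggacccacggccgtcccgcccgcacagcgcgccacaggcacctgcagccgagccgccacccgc
Cd36: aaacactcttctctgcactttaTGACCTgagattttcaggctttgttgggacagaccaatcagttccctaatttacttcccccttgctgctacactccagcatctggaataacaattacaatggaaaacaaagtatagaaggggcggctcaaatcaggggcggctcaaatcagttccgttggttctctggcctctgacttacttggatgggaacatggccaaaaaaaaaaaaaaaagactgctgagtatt
Vldlr: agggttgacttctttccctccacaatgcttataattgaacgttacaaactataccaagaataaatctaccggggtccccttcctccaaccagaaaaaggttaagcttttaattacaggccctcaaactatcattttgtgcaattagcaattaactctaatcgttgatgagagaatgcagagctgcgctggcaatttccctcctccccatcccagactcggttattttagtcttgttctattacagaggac
The Fabp1 window held AGGTCA at 67 and 9 bases before the start, both on the opposite strand as TGACCT, and TATAAA at 30 bases. In Slc27a2, AGGTCA lay 220 bases before the start and in Cd36 228 bases before it, in both on the opposite strand. The window of Vldlr held neither. CACGTG, TTCNNNGAA and DR1 were searched as well and were in none of the 4 windows. DR1 is a direct repeat of AGGTCA with a single base between the copies, and it therefore overlaps with AGGTCA. Only exact matches to the given letters were sought, so repeats with a mismatched base were not counted. Among all 32817 windows of the same length, 14% held AGGTCA, 12.4% TATAAA, 7.01% TTCNNNGAA, 6.02% CACGTG and 0.0335% DR1, so a single AGGTCA is common. Of the 10 genes, 7 were matched in the RefSeq table, and Fabp4, Fabp5 and Lpl were not. The windows of Fabp2 and Slc27a4 held none of the motifs, and Lipc held none in its first entry and AGGTCA at 88 and 76 bases in its second. The RefSeq starts used for Fabp1, Slc27a2 and Cd36 lie inside the genes as GENCODE draws them. These matches describe letters and were not related to binding.

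Cd36 (ENSMUSG00000002944, chromosome 5, 17781690 to 17888801, minus strand, GRCm38) encodes a membrane glycoprotein that binds long-chain fatty acids and oxidised lipoproteins and is found on macrophages and endothelium as well as hepatocytes. It rose 2.72-fold in shG0s2 and did not pass the test in shRgs16. Its values were 128, 164, 167 and 146 CPM in shLacZ replicates 1 to 4 and 422, 427, 387 and 399.5 in shG0s2. The shRgs16 samples stood at 151, 169, 128 and 117 CPM. Every shG0s2 sample lay above every sample of the other groups, and the shLacZ and shRgs16 samples overlapped. The difference from shLacZ was 1.44 on the log2 scale (SE 0.0861) with an adjusted p of 9.2e-08 in edgeR's quasi-likelihood test, which gives every adjusted p below unless another tool is named. For shRgs16 the difference was −0.10 (SE 0.123, adjusted p = 0.52), and it was 0.20 with library size alone (adjusted p = 0.27) and 0.37 in limma's test on log2(TPM + 1) (adjusted p = 0.041), so its direction in shRgs16 depends on the scaling.

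Slc27a2 (ENSMUSG00000027359, chromosome 2, 126552407 to 126588243, plus strand) encodes FATP2, a very long-chain acyl-CoA synthetase of liver and kidney that also transports fatty acids. It fell in both knockdowns, and further in shG0s2. The 4 shLacZ samples stood at 2472, 2566, 2166 and 2412 CPM, the shG0s2 samples at 915, 659, 916 and 787 CPM, and the shRgs16 samples at 1451, 1351, 1557 and 1416 CPM. The 3 groups did not overlap at any point. The level was 0.343 of the control in shG0s2 (log2 difference −1.54, SE 0.117, adjusted p = 4.9e-07) and 0.599 in shRgs16 (−0.74, SE 0.0797, adjusted p = 2.0e-05). An antisense gene, Gm26697, overlaps Slc27a2 and the strand setting of the counting is not given in the sources used here, so reads of the pair may be mixed; Gm26697 itself was assigned 0.139 to 1.94 CPM.

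Slc27a4 (ENSMUSG00000059316, chromosome 2, 29802634 to 29817522, plus strand) encodes FATP4, the family member known from intestine and skin. It moved little in shG0s2, where the samples stood at 56.8, 62.5, 60.6 and 59.1 CPM against 55.65, 53.9, 55.4 and 55.1 in shLacZ. The groups did not overlap, and the log2 difference of 0.13 (SE 0.0528) had an adjusted p of 0.051. Without shG0s2 replicate 1 the difference was 0.15 with an adjusted p of 0.037, and with library size alone it was 0.62 (adjusted p = 5.8e-06). In shRgs16 the samples stood lower, at 42.4, 44.3, 37.6 and 42.7 CPM, below every sample of the other groups. Here Slc27a4 fell by 0.40 on the log2 scale (SE 0.0618, adjusted p = 0.00025), to 0.758 of the control. That call did not hold with library size alone (−0.10, adjusted p = 0.27), and in deposited TPM the difference was 0.04.

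**Figure D2:**
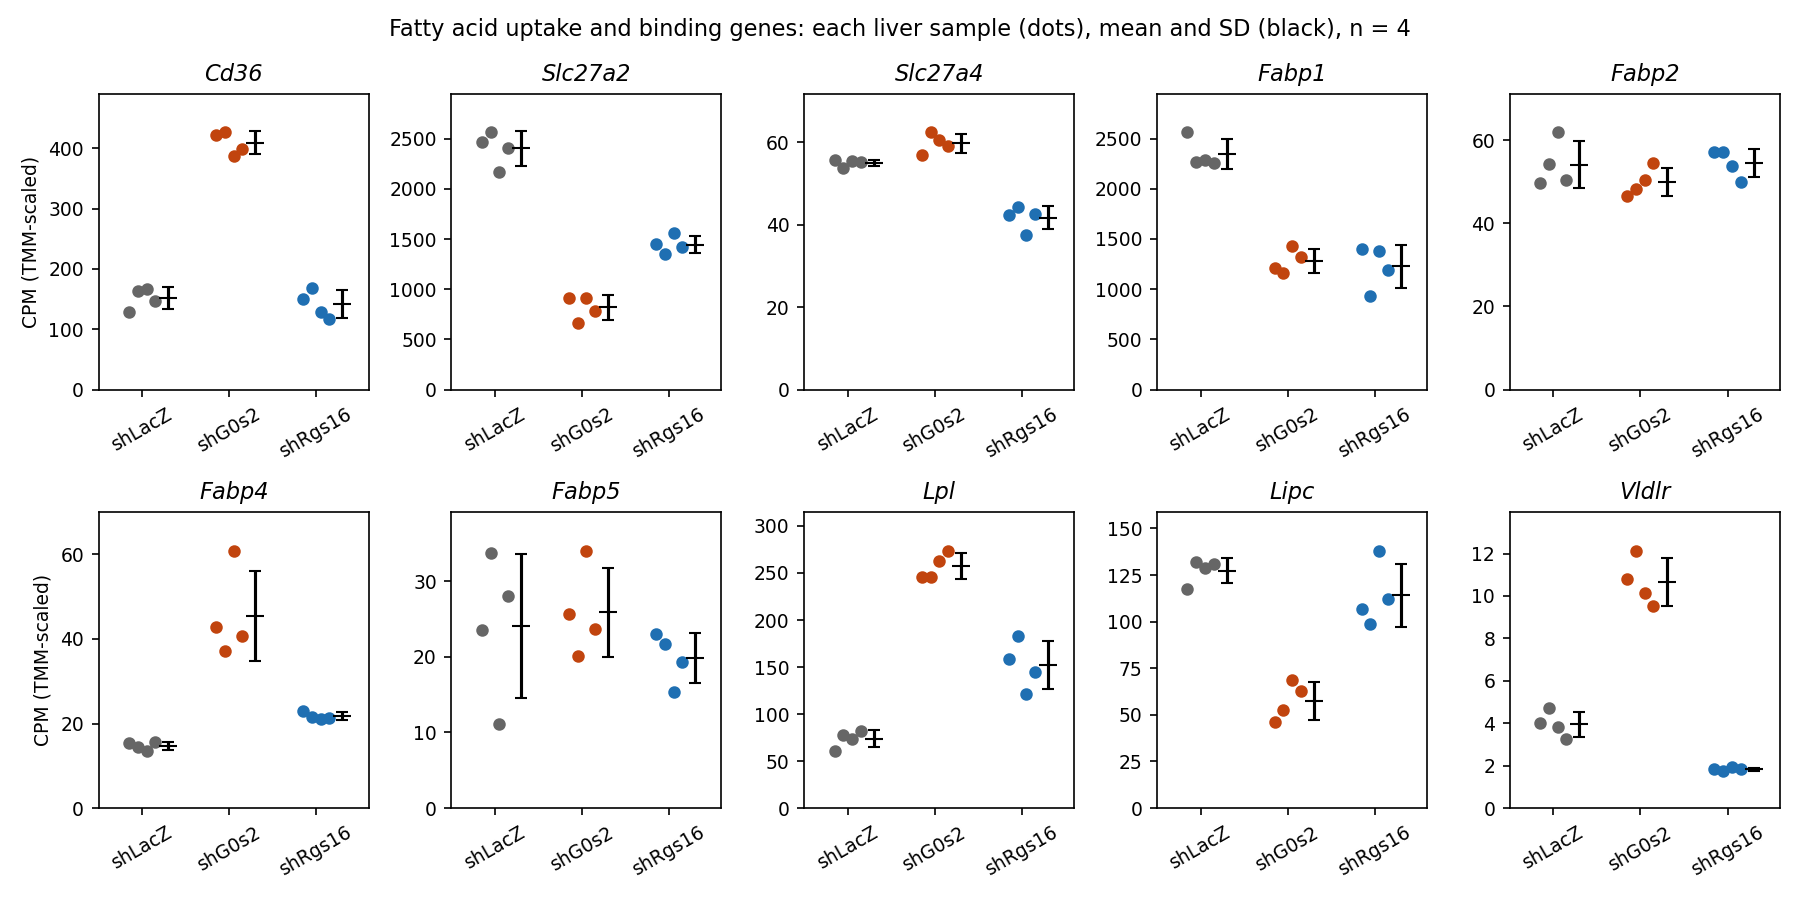
CPM of each of the 10 genes in the 12 samples, 1 panel per gene with its own axis, coloured points for samples and a black mark for the group mean with its SD (n = 4). Cd36, Fabp4, Lpl and Vldlr are highest in shG0s2, Fabp1 and Slc27a2 are highest in shLacZ, and the groups of Fabp2 and Fabp5 overlap throughout.

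Of the binding proteins, Fabp1 fell in both knockdowns and Fabp4 rose in both, while Fabp2 and Fabp5 passed the test in neither. Fabp1 (ENSMUSG00000054422, chromosome 6, 71199827 to 71205023, plus strand) is the abundant carrier of hepatocyte cytosol. Its values were 2564, 2266, 2289 and 2261 CPM in shLacZ and 1207, 1165, 1432 and 1325 in shG0s2. The shRgs16 samples stood at 1399, 932, 1381 and 1193 CPM. Both knockdown groups lay wholly below the controls and overlapped with each other. Fabp1 fell to 0.551 of the control in shG0s2 (log2 difference −0.86, SE 0.0948, adjusted p = 9.1e-06) and to 0.522 in shRgs16 (−0.94, SE 0.118, adjusted p = 5.8e-05). In limma's test on log2(TPM + 1), the shG0s2 difference was −0.15 with an adjusted p of 0.054, so that call did not hold there.

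Fabp4 (ENSMUSG00000062515, chromosome 3, 10204088 to 10208576, minus strand) is the carrier of adipocytes, and macrophages and capillary endothelium express it too. Its level was low in shLacZ, at 15.3, 14.4, 13.4 and 15.6 CPM. The shG0s2 samples stood at 42.8, 37.2, 60.9 and 40.7 CPM and the shRgs16 samples at 23.0, 21.5, 21.0 and 21.2. Every shG0s2 sample was above every shRgs16 sample, which in turn were all above shLacZ, with shG0s2 replicate 3 the highest. The rise was 3.11-fold in shG0s2 (log2 1.64, SE 0.149, adjusted p = 7.3e-06) and 1.47-fold in shRgs16 (log2 0.56, SE 0.0749, adjusted p = 8.8e-05). Of the 11 adipocyte markers, which include Fabp4, Lep was listed at 0 in all 12 samples and Adipoq in all shG0s2 samples. Of the 7 tested in shG0s2, 4 rose (Fabp4, and Cidea by 1.87, Cidec by 1.85 and Plin4 by 0.62 on the log2 scale) and 2 fell (Adrb3 and Pck1), and of the 6 tested in shRgs16, Fabp4 rose and Cfd fell (4 and 1, and 2 and 1, with library size alone). The part of adipocytes in the rise of Fabp4 was not tested.

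Fabp2 (ENSMUSG00000023057, chromosome 3, 122895072 to 122899506, plus strand) is the carrier of the intestinal enterocyte. It ranged from 49.7 to 61.9 CPM in the controls, 46.5 to 54.5 under shG0s2 and 49.96 to 57.1 under shRgs16, and all 3 groups overlapped. The log2 difference was −0.11 in shG0s2 (SE 0.0787, adjusted p = 0.26) and 0.01 in shRgs16 (SE 0.0763, adjusted p = 0.94); with library size alone these were 0.38 and 0.31, both past the threshold. Of 10 intestinal epithelium markers, 5 (Cdx1, Cdx2, Sis, Guca2a and Fabp6) were listed at 0 in every shLacZ and shRgs16 sample and 3 (Cdx1, Sis and Fabp6) in every shG0s2 sample. The gene 4933405D12Rik overlaps Fabp2 on the opposite strand and was assigned at most 0.0931 CPM. Fabp5 (ENSMUSG00000027533, chromosome 3, 10012548 to 10016607, plus strand) is the carrier first known from epidermis. Relative to its mean, its spread in the controls was the widest of the 10 genes, with 11.1 to 33.7 CPM. Fabp5 ranged from 20.2 to 34.02 CPM under shG0s2 and from 15.4 to 22.98 under shRgs16. The 3 groups overlapped, with shLacZ replicate 3 the lowest of all samples. The log2 difference was 0.12 in shG0s2 (SE 0.336, adjusted p = 0.79) and −0.28 in shRgs16 (SE 0.325, adjusted p = 0.52). Without shLacZ replicate 3 the shRgs16 value was −0.52 with an adjusted p of 0.022.

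Of the genes that act on lipoproteins, Lpl rose in both knockdowns, Lipc fell in shG0s2, and Vldlr rose in shG0s2 and fell in shRgs16. Lpl (ENSMUSG00000015568, chromosome 8, 68880491 to 68907448, plus strand) encodes lipoprotein lipase, which cleaves the triglyceride of chylomicrons and very low-density lipoproteins at the vessel wall. It stood at 61.1, 77.9, 73.0 and 82.4 CPM in shLacZ and 246, 246, 263 and 274 in shG0s2. In shRgs16 the values were 159, 183, 122 and 145 CPM. The 3 groups did not overlap, and shRgs16 lay between the others. Lpl rose 3.51-fold in shG0s2 (log2 1.81, SE 0.0895, adjusted p = 2.8e-08) and 2.06-fold in shRgs16 (log2 1.05, SE 0.133, adjusted p = 0.00020).

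Lipc (ENSMUSG00000032207, chromosome 9, 70798128 to 70952226, minus strand) encodes hepatic lipase, a lipase secreted by hepatocytes that acts on remnants and high-density lipoproteins. Its course in shG0s2 was opposite to that of Lpl. It stood at 117, 132, 129 and 131 CPM in shLacZ and 45.9, 52.7, 68.7 and 62.7 in shG0s2, with no overlap. It fell to 0.455 of the control there (log2 difference −1.14, SE 0.112, adjusted p = 8.9e-06). The shRgs16 samples, at 107, 98.7, 138 and 112 CPM, overlapped with the controls (−0.16, SE 0.0909, adjusted p = 0.16). Without replicate 3, the highest shRgs16 sample, Lipc stood 0.27 lower on the log2 scale with an adjusted p of 0.0064, whereas in limma's test on log2(TPM + 1) it stood 0.28 higher (adjusted p = 0.029). Lipc overlaps 3 annotated genes, of which Gm3436 and Gm32017 lie on the opposite strand and were assigned at most 0.221 and 0.196 CPM.

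Vldlr (ENSMUSG00000024924, chromosome 19, 27216484 to 27254231, plus strand) encodes the very low-density lipoprotein receptor, which binds particles rich in apolipoprotein E and is scarce in healthy liver. It was the only one of the 10 genes that passed the test in opposite directions against shLacZ. Its level was 4.002, 4.72, 3.802 and 3.25 CPM in shLacZ and 10.8, 12.1, 10.2 and 9.53 in shG0s2. The shRgs16 samples stood at 1.82, 1.75, 1.92 and 1.83 CPM. No shG0s2 sample was as low as any shLacZ sample and no shRgs16 sample was as high. Vldlr rose 2.72-fold in shG0s2 (log2 1.44, SE 0.132, adjusted p = 2.1e-06) and fell to 0.464 of the control in shRgs16 (−1.11, SE 0.164, adjusted p = 0.00018). The estimated counts behind these levels were 69 to 100 per control sample, 262 to 323 under shG0s2 and 46 to 51 under shRgs16. In deposited TPM, shLacZ replicate 1 stood at 1.68 and the other 3 at 0.57 to 0.72, although its CPM lay inside their range; TPM also uses a length for each gene and sample, which for this gene differed in that sample. In limma's test on log2(TPM + 1), the fall in shRgs16 was −0.35 with an adjusted p of 0.077.

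Of the 10 genes, 4 rose (Cd36, Fabp4, Lpl and Vldlr), 3 fell (Fabp1, Slc27a2 and Lipc) and 3 did not pass the test in shG0s2. Of all 15592 genes tested in that comparison, 60.5% passed, 31.3% as higher and 29.2% as lower, so 7 of 10 is near the share in the whole table. By groups that do not overlap, 5 lay above shLacZ and 3 below, beside 28.2% and 27.4% of all genes. In shRgs16, 2 rose (Fabp4 and Lpl), 4 fell (Fabp1, Slc27a2, Slc27a4 and Vldlr) and 4 did not pass, beside 49.1% of 15324 genes (24.6% higher and 24.5% lower). There, 2 lay wholly above shLacZ and 4 below, beside 22.2% and 22.7% of all genes. The median log2 difference of the 10 genes was 0.12 in shG0s2 and −0.22 in shRgs16, beside 0.01 over all genes in each. All 10 passed the filter on low counts in every comparison. With library size alone, 89.0% of all calls in shG0s2 were higher, against 51.7% with TMM, and 85.7% against 50.1% in shRgs16. Of the 10 genes, 6 were then higher and 3 lower in shG0s2, and 3 higher and 3 lower in shRgs16; Cd36, Fabp4, Lpl, Vldlr, Fabp1, Slc27a2 and Lipc kept their calls in shG0s2. In the authors' deposited table, 7 of the 10 had an adjusted p-value under 0.05 in shG0s2 and 6 in shRgs16. The authors' deposited table marks fewer as significant, 4 up and 2 down in shG0s2 and 1 up (Lpl) and 1 down (Vldlr) in shRgs16.

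**Figure D3:**
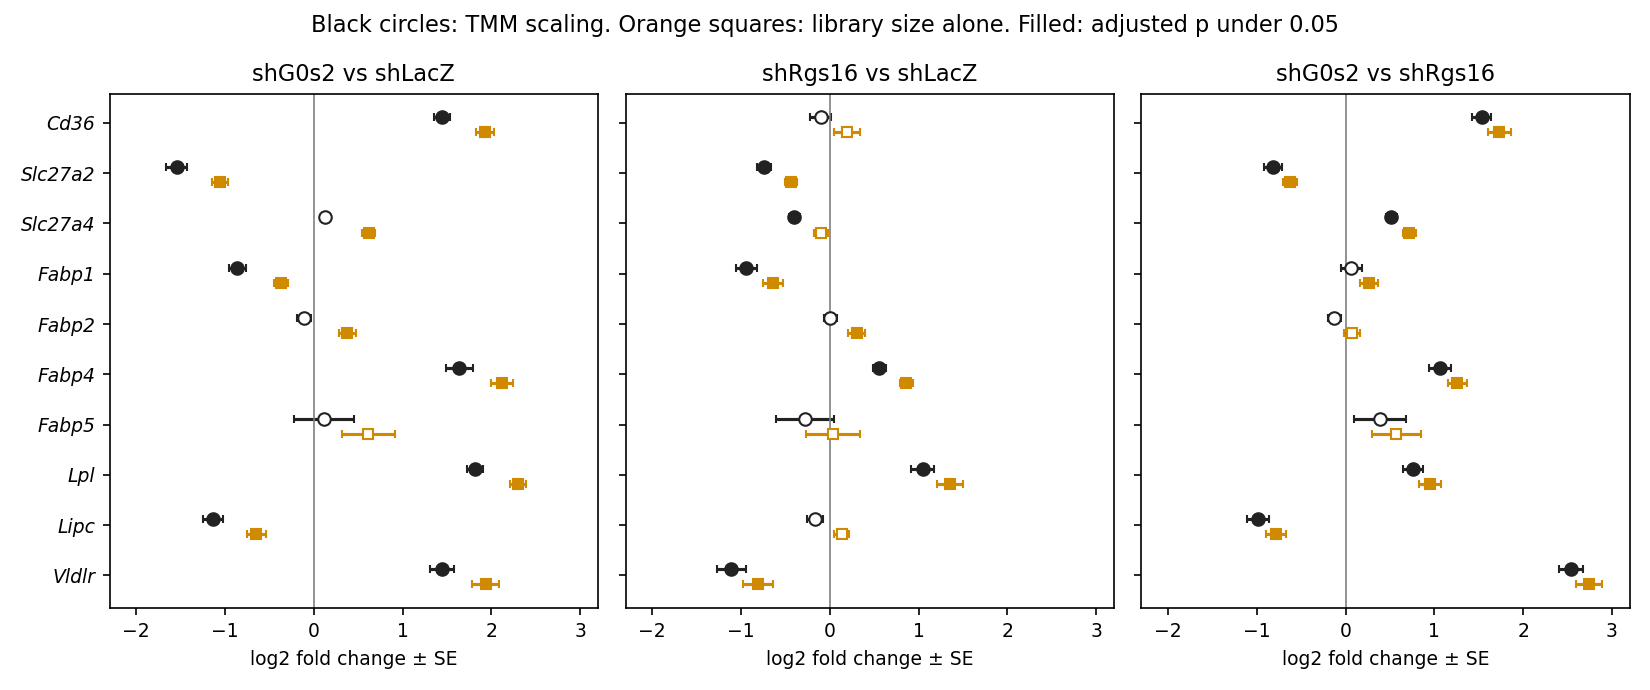
Log2 fold change of the 10 genes with TMM scaling (black circles) and with library size alone (orange squares) for shG0s2 against shLacZ, shRgs16 against shLacZ and shG0s2 against shRgs16; bars show the standard error of edgeR's model, and filled points passed an adjusted p of 0.05. On the TMM scale Vldlr lies at 1.44 for shG0s2 and −1.11 for shRgs16, the widest gap of the 10 genes, while Fabp1 lies at −0.86 and −0.94.

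The knockdowns share the same shLacZ controls, so their profiles are set beside each other through the direct comparison of shG0s2 with shRgs16, which equals the difference between their effects. In that comparison 5 of the 10 genes were higher in shG0s2 and 2 lower, beside 41.5% of 16018 genes that passed the test (21.0% higher and 20.5% lower). By groups that do not overlap, 5 lay above and 2 below, beside 20.4% and 19.4% of all genes. The median log2 difference was 0.45 for the 10 genes and 0.01 for all genes. With library size alone, 79.4% of all calls were higher against 50.6% with TMM, and 6 of the 10 were higher and 2 lower. Vldlr differed most, 5.81-fold higher in shG0s2 than in shRgs16 (log2 2.54, SE 0.136, adjusted p = 4.7e-09). Cd36 was higher by 1.53 on the log2 scale (SE 0.108, adjusted p = 1.3e-07) and Fabp4 by 1.07 (SE 0.123, adjusted p = 1.1e-05). Lpl was higher by 0.76 (SE 0.112, adjusted p = 0.00011) and Slc27a4 by 0.52 (SE 0.0577, adjusted p = 5.5e-06). Lipc (−0.99, SE 0.123, adjusted p = 3.8e-05) and Slc27a2 (−0.82, SE 0.103, adjusted p = 1.6e-05) were lower in shG0s2. Fabp1, which fell against shLacZ in both, differed by 0.06 (SE 0.115, adjusted p = 0.69); with library size alone it was 0.27 (adjusted p = 0.042). Fabp2 (−0.13, adjusted p = 0.19) and Fabp5 (0.38, adjusted p = 0.33) did not pass the test.

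Other genes of fatty acid entry and activation fell more often than they rose on the TMM scale. Of 18 tested, 6 rose and 10 fell in shG0s2, and 4 rose and 8 fell in shRgs16 (8 and 4, and 7 and 5, with library size alone). Of all genes tested, 31.3% rose and 29.2% fell in shG0s2, and 24.6% rose and 24.5% fell in shRgs16. Cav1, the caveolin of membrane pits, stood at 15.8 ± 1.78 CPM in the controls, 3.89 ± 0.377 under shG0s2 and 3.39 ± 1.01 under shRgs16 (mean ± SD, n = 4 each). It fell by 2.02 (adjusted p = 7.5e-08) and 2.22 (adjusted p = 3.8e-06) on the log2 scale. Acsl1, the main hepatic long-chain acyl-CoA synthetase, fell from 1486 ± 302 CPM to 659 ± 65.6 in shG0s2 and 787 ± 87.2 in shRgs16 (adjusted p = 2.7e-05 and 0.00041). Slc27a5, the bile acid and fatty acid CoA ligase of the Slc27 family, stood at 497 ± 40.7, 190 ± 47.1 and 375 ± 19.8 CPM in shLacZ, shG0s2 and shRgs16. It fell by 1.38 and 0.41 on the log2 scale (adjusted p = 8.5e-05 and 0.00065), and by 0.98 more in shG0s2 than in shRgs16 (adjusted p = 0.00013); its fall in shRgs16 did not hold with library size alone (−0.11, adjusted p = 0.13). The medium-chain synthetases Acsm3 and Acsm5 fell by 0.64 and 0.60 in shG0s2 (adjusted p = 3.9e-06 and 5.7e-06; −0.16 and −0.11 with library size alone, which did not pass) and by 0.55 and 0.47 in shRgs16 (adjusted p = 2.2e-05 and 0.0021; −0.25 and, not passing, −0.17 with library size alone). Acsm1, of the same family, fell by 0.92 in shG0s2 and 0.99 in shRgs16 (adjusted p = 8.4e-06 and 7.3e-07). Slc27a3, at only 1.05 ± 0.258 CPM in the controls, and Acsl5 were among the 6 that rose in shG0s2. They rose by 1.09 and 0.40 there (adjusted p = 0.0017 and 0.0012). In shRgs16 neither passed (−0.18 and −0.03). With library size alone these were 0.12 and 0.28, of which only Acsl5 passed (adjusted p = 0.015). Acsl3 and Acsl4 were among the genes that rose in both knockdowns. They rose by 0.38 and 0.58 in shG0s2 (adjusted p = 0.0042 and 0.0017). In shRgs16 they rose by 0.42 and 0.95 (adjusted p = 0.0034 and 0.00028). Among other lipid binding proteins, 4 rose and 5 fell of 12 tested in shG0s2, and 3 rose and 6 fell of 11 in shRgs16 (7 and 1, and 5 and 1, with library size alone). Rbp4, the plasma carrier of retinol, fell by 0.99 in shG0s2 (adjusted p = 2.9e-06) and 0.42 in shRgs16 (adjusted p = 0.00072; −0.12 with library size alone, which did not pass). Scp2, a sterol and fatty acyl-CoA carrier, fell by 0.58 in shG0s2 (adjusted p = 9.1e-05; −0.09 with library size alone, which did not pass) and 0.57 in shRgs16 (adjusted p = 6.2e-05).

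Of 18 partners and regulators of lipoprotein lipolysis, 6 rose and 9 fell in shG0s2 and 6 rose and 8 fell in shRgs16 (8 and 5 in each with library size alone). Apoc2, the activator that Lpl needs, rose by 0.91 on the log2 scale in shG0s2 (118 ± 2.01 to 220 ± 13.4 CPM, adjusted p = 1.9e-07) and by 0.37 in shRgs16 (adjusted p = 0.015). Sel1l, which helps Lpl mature in the endoplasmic reticulum, fell by 1.05 in shG0s2 and 0.96 in shRgs16 (adjusted p = 5.3e-07 and 2.4e-06). Angptl4, an Lpl inhibitor, fell by 0.37 in shG0s2 (adjusted p = 0.0032) and rose by 0.34 in shRgs16 (adjusted p = 0.018); the former was 0.13 with library size alone. Gpihbp1, which carries Lpl to the capillary lumen, differed by −0.08 in shG0s2 (adjusted p = 0.45; 0.40 with library size alone, adjusted p = 0.0020) and rose by 0.28 in shRgs16 (adjusted p = 0.036). Pcsk6, a proprotein convertase, rose by 0.25 in shG0s2 (adjusted p = 0.0038) and fell by 1.04 in shRgs16 (adjusted p = 1.9e-07), a difference of 1.28 between the knockdowns (adjusted p = 9.7e-10).

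Vldlr belongs to the family of lipoprotein receptors, of which 20 others were tested. In shG0s2, 7 of these rose and 8 fell, and in shRgs16 5 rose and 3 fell (13 and 1, and 15 and 1, with library size alone). Lrp1, which takes up remnants, fell by 0.47 in shG0s2 (adjusted p = 0.0043; 0.02 with library size alone) and differed by 0.05 in shRgs16 (adjusted p = 0.69). Sorl1, a sorting receptor, rose by 1.24 and 1.29 (adjusted p = 7.9e-07 and 8.0e-06), and Msr1, the macrophage scavenger receptor, by 0.84 and 0.60 (adjusted p = 1.2e-06 and 1.7e-05). Lrp2, or megalin, stood at 3.06 ± 0.464 CPM in the controls, 0.172 ± 0.182 under shG0s2 and 4.07 ± 1.61 under shRgs16, and fell by 4.03 on the log2 scale under shG0s2 (adjusted p = 1.7e-05).

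Among 27 nuclear receptors and other factors known to act on such genes, 4 rose and 16 fell in shG0s2 and 3 rose and 13 fell in shRgs16 (11 and 5, and 10 and 3, with library size alone). Pparg, the receptor that activates Fabp4, Cd36 and Lpl in adipocytes, stood at 15.5 ± 2.41 CPM in the controls, 22.5 ± 0.955 under shG0s2 and 9.93 ± 1.99 under shRgs16. It rose by 0.54 on the log2 scale in shG0s2 (adjusted p = 0.00062) and fell by 0.65 in shRgs16 (adjusted p = 0.0044); the latter was −0.35 with library size alone (adjusted p = 0.096). The difference of 1.18 between the knockdowns had an adjusted p of 6.0e-06. Like Vldlr, the gene thus passed the test in opposite directions on the TMM scale. Ppara, the receptor that drives Fabp1, Slc27a2 and Cd36 in fasting liver, fell from 462 ± 13.96 CPM to 297 ± 24.4 in shG0s2 (−0.63, adjusted p = 1.3e-05) and 314 ± 15.3 in shRgs16 (−0.56, adjusted p = 1.7e-05). With library size alone these differences were −0.14 (adjusted p = 0.049) and −0.26 (adjusted p = 0.0012). In deposited TPM, Ppara stood at 72.9 ± 2.29 in shLacZ, 75.9 ± 2.77 in shG0s2 and 65.3 ± 1.94 in shRgs16, so its fall in shG0s2 depends on the scaling. Hnf4a, a factor of hepatocyte identity, fell by 0.96 and Mlxipl, the carbohydrate response factor ChREBP, by 1.14 in shG0s2 (adjusted p = 8.4e-07 and 1.0e-06), and by 0.46 and 0.42 in shRgs16 (adjusted p = 0.00096 and 0.042; neither passed with library size alone). Nfe2l2, the oxidative stress factor, rose by 1.17 in shG0s2 and 0.25 in shRgs16 (adjusted p = 5.3e-07 and 0.0048). Rxra, the partner of many nuclear receptors, fell by 0.53 in shG0s2 (adjusted p = 1.3e-05; −0.05 with library size alone, which did not pass) and 0.66 in shRgs16 (adjusted p = 1.5e-05).

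**Figure D4:**
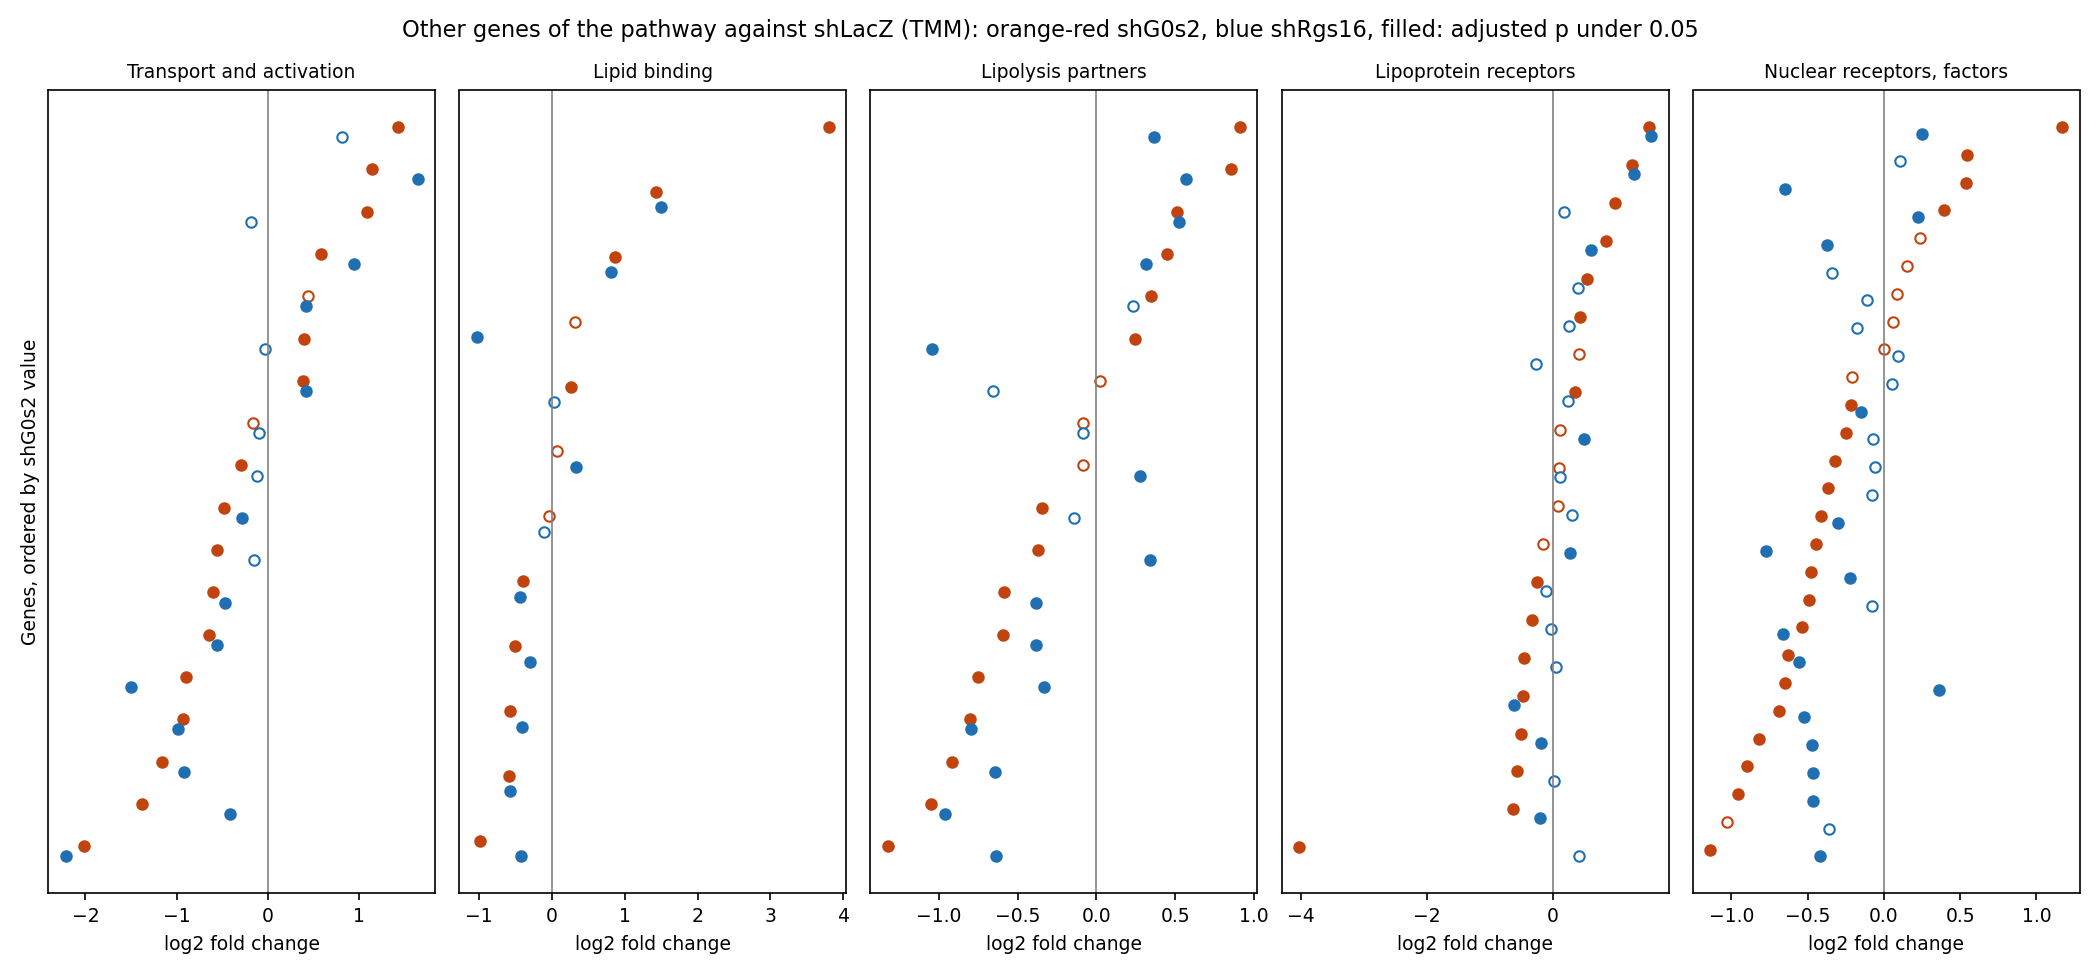
Log2 fold change against shLacZ (TMM scale) of the genes in 5 related lists, 1 row per tested gene in the order of its shG0s2 value and each panel with its own axis, for shG0s2 (orange-red) and shRgs16 (blue), with filled points past an adjusted p of 0.05. In shG0s2, 16 of 27 nuclear receptors and factors fell and 4 rose, and 10 of 18 other transport and activation genes fell and 6 rose.

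Marker lists of the liver's cell types were counted in the same comparisons. The 18 Kupffer cell and macrophage markers summed to 1320 to 1540 CPM in the controls, 2080 to 2390 under shG0s2 and 1910 to 2110 under shRgs16, and 16 of 18 rose in shG0s2 and 15 of 17 in shRgs16 with none falling. The 13 stellate cell and fibroblast markers summed to 351 to 441, 1320 to 1600 and 561 to 992 CPM in shLacZ, shG0s2 and shRgs16. All 13 rose in shG0s2, and 7 rose and 2 fell in shRgs16 (10 and 1 with library size alone). The 14 liver endothelial markers summed to 470 to 501, 430 to 519 and 451 to 624 CPM, with 3 rising and 3 falling in shG0s2 and 5 rising in shRgs16 (10 and 13 rising and none falling with library size alone). Of 12 hepatocyte markers, 11 fell and none rose in shG0s2, and 7 fell and 2 rose in shRgs16 (7 and 1, and 3 and 4, with library size alone). The 11 adipocyte markers, counted above beside Fabp4, summed to 2710 to 3270, 1530 to 2340 and 2840 to 3150 CPM; most of that sum was Pck1, which hepatocytes also express and which fell by 0.69 on the log2 scale in shG0s2 (adjusted p = 0.0011; −0.21 with library size alone, which did not pass). The part of these cell types in the changes of Lpl, Cd36, Fabp4 and Vldlr was not tested.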

How the data were processed

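The 12 samples were grouped by their titles. The authors deposited a table for each knockdown against shLacZ with, per the file headers, an estimated count and a TPM value per gene and sample. Their comparison is deposited there as a linear ratio and a log2 fold change, with raw and adjusted p-values. Control values were identical between the tables (0 differing over 8 columns). Tools in the submitters' processing notes are SAMtools 1.9, GATK 3.8, Bowtie2 2.2.9, fastp 0.19.5 and DESeq2. Not given in the sources used here: build, annotation, quantifier and strand. All symbols were matched by gene identifier to GENCODE on GRCm38 for coordinates.

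Estimated counts were rounded. Each knockdown was compared with shLacZ over its 8 samples, and shG0s2 with shRgs16 over all 12, with filterByExpr (minimum count 10), TMM and the robust, two-sided quasi-likelihood test of edgeR 4.0.16 in R 4.3.3, with Benjamini-Hochberg adjustment over all genes tested and a threshold of 0.05. Between replicates of a group, chi-square per degree of freedom was 12.12 to 47.26, beyond counting noise. Alternatives were DESeq2 1.42.0, limma-voom and limma 3.58.1 on log2(TPM + 1) and log2(TPM + 0.1), relative log expression factors, library size alone, no filter, 1 CPM in 4 samples, a replicate block, another set of samples in the model, and leaving out each sample.

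The members and lists were chosen with earlier results of these data known. By rule, the text names all 10 members, up to 3 genes with the smallest p in each list and comparison, fixed genes of the pathway (among them Pparg, Ppara, Gpihbp1, Angptl4, Slc27a5, Acsl1 and Lrp1), the hairpin targets, and, for the 3 members with the largest change against shLacZ, the 2 genes nearest in pattern. Not every gene chosen by the rule is reported here. Acsl3, Acsl4, Cidea, Plin4, Pck1, Adipoq and Lep were named outside it, after their values were seen. Other lists were markers of cholangiocytes and of proliferation.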

Additional observations from a re-analysis of the deposited data

Results flagged for a closer look

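In 3 of 60 groups of 4 values tested, 1 sample stood far from the other 3, and chance gives about 1 such group in 20. Fabp1 in shLacZ replicate 1 stood at 2564 CPM, with the other 3 at 2261 to 2289. Fabp4 in shG0s2 replicate 3 stood at 137.4 TPM, with the others at 91.1 to 97.79. Vldlr in shLacZ replicate 1 stood at 1.68 TPM, with the others at 0.57 to 0.72, although its estimated count was not apart.

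For 7 of the 10 genes the effect of the hairpin against G0s2 differed from that of the hairpin against Rgs16 in edgeR's test of the difference. Of all 16018 genes tested, 41.5% did so. The log2 difference of the effects was 2.54 for Vldlr, 1.53 for Cd36, 1.07 for Fabp4, 0.76 for Lpl and 0.52 for Slc27a4, and −0.99 for Lipc and −0.82 for Slc27a2. In each of these 7 genes all 4 shG0s2 samples lay on the same side of all 4 shRgs16 samples. Over all genes, 20.4% lay wholly above in this way and 19.4% wholly below.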

How the results depend on the processing

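Of 580 values recomputed over the 10 genes and all settings, 536 kept their direction and their side of the threshold, 24 changed direction, 15 passed the threshold that they had missed and 5 lost it. The counts of the 10 genes changed by over 1.5 times only in limma on TPM, under either pseudocount: 7 instead of 4 were higher in shG0s2, and 5 instead of 2 higher and 2 instead of 4 lower in shRgs16. In limma on log2(TPM + 1), 94.1%, 92.2% and 85.3% of all calls were higher in shG0s2, in shRgs16 and between the knockdowns. With 1 sample left out, 4 to 5 were higher and 3 lower in shG0s2, 2 higher and 4 to 5 lower in shRgs16, and 5 higher and 2 lower between the knockdowns. The direction changed only for values that missed the threshold in the main comparison, apart from Slc27a4 in shRgs16 (0.035 and 0.037 with the TPM settings). Some of the values that changed direction passed the threshold in the other setting. Examples are Fabp2 in shG0s2 with library size alone (adjusted p = 0.0037, edgeR), and Cd36 and Lipc in shRgs16 on log2(TPM + 1). Such values were counted only as changes of direction. With library size alone, log2(TPM + 1) and log2(TPM + 0.1) in that order, Fabp2 stood at 0.38, 0.59 and 0.60 in shG0s2 and 0.072, 0.15 and 0.15 between the knockdowns. In shRgs16, Cd36 stood at 0.20, 0.37 and 0.38, Fabp5 at 0.040, 0.21 and 0.22, and Lipc at 0.14, 0.28 and 0.28. With 1 sample left out, Fabp5 in shG0s2 ranged from −0.12 to 0.33 (negative without shLacZ replicate 3 or shG0s2 replicate 3, −0.045 in the latter), Fabp2 in shRgs16 from −0.035 to 0.071 (negative without shLacZ replicate 1 or 4 or shRgs16 replicate 1 or 2), and Fabp1 between the knockdowns from −0.049 to 0.13 (negative without shRgs16 replicate 2). The cause was not tested.

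The groups share replicate numbers, but the deviations of same-numbered samples correlated at only −0.0737 to 0.136 over the 12 pairs, and 4 of 12 samples correlated best with their own number. No pairing by number was visible. Such correlations cannot exclude one, and the labels state none. With the replicate block, 4 of the 10 genes were higher and 3 lower in shG0s2, 2 and 4 in shRgs16, and 5 and 2 between the knockdowns, as without it. Of all genes, 9299, 7104 and 6534 passed with the block, against 9431, 7519 and 6640 without it. Depth limits Vldlr most, with 46 to 51 estimated counts per sample in shRgs16.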

Other observations

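For the 3 genes of the set with the largest changes against shLacZ, the genes nearest in pattern were sought among 12405 genes by the root mean square difference of centred log2 CPM over the 12 samples. They were Rad18 (0.124) and Ctc1 (0.126) for Lpl, Zfp934 (0.163) and Abcd2 (0.174) for Fabp4, and Hao1 (0.106) and C8g (0.120) for Slc27a2. The measure shares the 12 libraries and the group differences, and says nothing of shared function.

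Among the adipocyte markers, Cidec, a lipid droplet protein of fat cells that also appears in fatty liver, stood at 25.2 ± 5.07 CPM in the controls, 90.5 ± 5.80 under shG0s2 and 17.99 ± 4.84 under shRgs16 (mean ± SD, n = 4 each). It rose by 1.85 on the log2 scale in shG0s2 (adjusted p = 4.5e-07, edgeR) and differed by −0.49 in shRgs16 (adjusted p = 0.11). Cidea, of the same family, and Plin4, a droplet coat protein, rose by 1.87 and 0.62 in shG0s2 (adjusted p = 0.0076 and 0.0094). The β3-adrenergic receptor gene Adrb3 fell by 1.06 there (adjusted p = 5.0e-05) and differed by −0.21 in shRgs16 (adjusted p = 0.16). With library size alone the latter was 0.08 (adjusted p = 0.63), so its direction depends on the scaling. Proliferation markers rose in both knockdowns, 7 of 7 in each, and summed to 31.4 to 38.2 CPM in the controls, 135 to 161 under shG0s2 and 74.9 to 119 under shRgs16. Mcm5, a replication licensing subunit, rose by 2.19 in shG0s2 (adjusted p = 7.5e-09) and 1.32 in shRgs16 (adjusted p = 1.2e-05). Of the cholangiocyte markers, 2 of 6 rose in each knockdown and none fell, with Epcam, an epithelial adhesion molecule, at 1.43 ± 0.443 CPM in the controls, 4.97 ± 1.28 under shG0s2 and 2.45 ± 0.486 under shRgs16. Intestinal markers had 1 rise and 2 falls of 3 tested in shG0s2 and 1 fall of 2 in shRgs16, with Lgals4, a galectin, lower by 0.92 and 0.87 on the log2 scale (adjusted p = 2.6e-06 and 3.0e-05).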
